A study of Bos taurus with 8 samples.

Results

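The semaphorin, plexin, neuropilin, slit, robo, netrin and UNC5 genes encode the main secreted and membrane-bound guidance cues and their receptors. They were chosen by name, as each gene whose symbol begins with SEMA, PLXN or UNC5 or is NRP, SLIT, ROBO or NTN followed by a number alone. This gave 48 of the 24596 genes in the count table, of which 40 had enough reads to be tested. The study compared chondrocytes of the superficial zone of articular cartilage (SZCs), which make the lubricant encoded by *Prg4*, with deep zone chondrocytes (DZCs), which make little of it, in order to find regulators that separate the zones. Both cell populations were wild type, came from knee joints of calves aged 1 to 2 weeks and were kept for 3 days in DMEM/F12 with serum, so the DZCs differed from the SZCs by zone alone as far as the labels tell. Polyadenylated transcripts were read by RNA-Seq in 2 libraries per zone. The study describes its duplicates as biological, and neither it nor the labels say whether they were separate animals or cultures, so the p-values measure the spread between these libraries. Chromatin accessibility libraries of the same series are not analysed here.

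Semaphorins bind plexins, and the secreted class 3 semaphorins do so mostly together with a neuropilin as co-receptor. Slits bind robos, and netrins bind DCC, neogenin and the UNC5 receptors, the last of which mediate repulsion. These cues were described first in growing axons and also steer blood vessels, migrating cells and bone cells. Mature articular cartilage holds neither nerves nor blood vessels.

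The labels were checked first. *Prg4* had 69682 and 46976 read counts in SZCs and 246 and 1372 in DZCs, and its log2 fold change (SZC over DZC) was 6.08 (SE 0.696), and *Creb5*, a transcription factor of the superficial zone, gave 4.61 (SE 0.460). All 6 listed superficial zone markers were higher in SZCs at a false discovery rate (FDR) below 0.05. *Prg4* was known from earlier work as a superficial zone gene. The study reported the others from these same libraries, so they are no independent check of the labels. The chondrocyte collagen *Col2a1* had a log2 fold change of -1.91 (SE 0.593, FDR 0.0658). DZC replicate 1 stood apart: *Col2a1* took 24.5% of its counts, against 12.9% in DZC replicate 2 and 6.31% to 7.18% in SZCs. The libraries held 19918970 to 21890549 counts. DZC replicates 1 and 2 differed strongly for many guidance genes, and where a call turned on one of them the value without it is given. Levels below are CPM, counts scaled to a common library size, after TMM normalization, which also allows for differences in composition. They are not divided by transcript length, so they compare libraries and not genes, and a count of 3 corresponds to 0.129 to 0.187 CPM in these libraries. In bulk RNA, fewer cells of a type and less RNA per cell cannot be told apart.

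Of the 40 tested guidance genes, 5 were higher in SZCs (*Sema3d*, *Sema6a*, *Sema6d*, *Robo1* and *Robo2*) and 1 was higher in DZCs (*Unc5c*) by edgeR's exact test at an FDR below 0.05. Among all 12857 tested genes, 2.23% were higher in SZCs and 0.7% in DZCs by the same test. The median log2 fold change of the 40 was 0.19, beside -0.04 over all tested genes, with 24 above 0 and 16 below. In 14 of the 40 both SZC libraries lay above both DZC libraries, a pattern shown by 21% of all tested genes. In 4 of the 40 both DZC libraries lay above both SZC libraries, as did 20.5% of all tested genes. The quasi-likelihood test of edgeR on the same counts called 0 guidance genes and 0 genes in all at an FDR below 0.05, with 12 guidance genes and 8.76% of all genes at an unadjusted p below 0.05. In the 6 other alternative settings, each of the 6 genes passed. The 7 macrophage and blood cell markers summed to 19.8 and 34.1 CPM in SZCs and to 6.84 and 16.0 CPM in DZCs. *Cd14* gave much of this (264 and 374 counts against 63 and 147), and in 5 of the 7 the zones overlapped. Of the 7, 5 were tested and 0 passed, and *Ptprc* had 0 to 14 counts; their part in the zone differences was not tested.

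**Figure D1:**
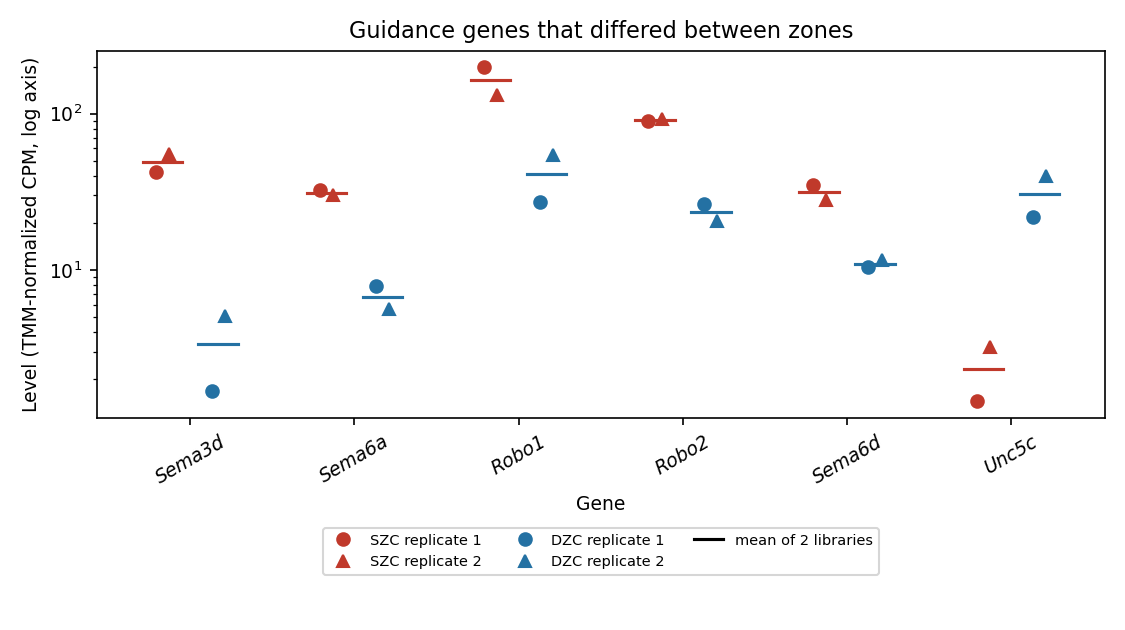
Level of the 6 guidance genes past FDR 0.05 in each library (TMM-normalized CPM, log axis), with circles for replicate 1, triangles for replicate 2 and a line for the mean of 2 libraries. In each gene the SZC and DZC libraries do not overlap: *Sema3d* lies between 42.7 and 55.0 CPM in SZCs and between 1.68 and 5.07 CPM in DZCs, and *Unc5c* shows the opposite order.

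*Sema3d* had the largest difference among the 5 genes higher in SZCs. This secreted class 3 semaphorin repels axons and endothelial cells. It had 939 and 1276 counts in SZCs and 27 and 113 in DZCs, or 42.7 and 55.0 against 1.68 and 5.07 CPM. The lower SZC library thus stood well above the higher DZC library, while the DZC libraries themselves differed 3.02-fold. The means were 48.8 ± 8.71 CPM in SZCs and 3.37 ± 2.39 CPM in DZCs (SD, n = 2 each), with a log2 fold change of 3.84 (SE 0.565, FDR 3.65e-07), which is 14.3-fold. Leaving out any single library kept the call, with log2 fold changes of 3.27 to 4.88.

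In the annotation of RefSeq (ARS-UCD2.0, which is not the build of the counts and serves here only for gene order and for which spans overlap), *Sema3d*, *Sema3a* and *Sema3e* follow each other with 0 protein-coding genes between them. All 3 had higher values in both SZC libraries than in both DZC libraries, and only *Sema3d* passed the test. *Sema3a*, the first class 3 semaphorin shown to collapse growth cones, had 304 and 97 counts in SZCs and 0 and 21 in DZCs, or 13.8 and 4.18 against 0 and 0.941 CPM. Its log2 fold change of 4.21 (SE 1.28) had an FDR of 0.116. The log2 fold change was 3.097 without SZC replicate 1 (FDR 0.794), 4.81 without SZC replicate 2 (FDR 0.00774) and 3.25 without DZC replicate 1 (FDR 0.00446), and without DZC replicate 2 the FDR was 1.28e-08, a fit against 0 counts that gives no bound on the fold. With all 4 libraries it did not pass in any alternative setting, with FDRs of 0.111 to 0.666, the highest by DESeq2. *Sema3e*, which can bind plexin D1 without a neuropilin, had 28 and 43 counts in SZCs and 6 and 8 in DZCs, with a log2 fold change of 2.08 (SE 0.756, FDR 0.150).

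The other class 3 semaphorins did not pass the test. *Sema3c*, a ligand of both neuropilins with known roles in the outflow tract of the heart, was at 145 and 202 CPM in SZCs and at 27.7 and 188 CPM in DZCs. DZC replicate 2 therefore lay among the SZC libraries and DZC replicate 1 alone was low. Its log2 fold change was 0.69 (SE 0.824, FDR 0.990), but -0.11 without DZC replicate 1 and 2.67 (FDR 9.50e-11) without DZC replicate 2. *Sema3f*, a ligand of neuropilin 2, was at 9.54 and 8.92 CPM in SZCs and 2.49 and 8.65 CPM in DZCs. The zones did not overlap, but DZC replicate 2 lay just below the SZCs, and the log2 fold change of 0.72 (FDR 0.955) became 0.096 without DZC replicate 1 and 1.91 (FDR 0.00174) without DZC replicate 2. *Sema3b* was at 47.0 and 57.6 CPM in SZCs and 32.3 and 56.6 CPM in DZCs, with overlapping zones (0.23, FDR 1). *Sema3g* had 0 to 10 counts and was not tested. Summed over the 7 members, class 3 semaphorins were at 260 and 330 CPM in SZCs and at 64.6 and 260 CPM in DZCs, so the sum of DZC replicate 2 equalled that of the lower SZC library.

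**Figure D2:**
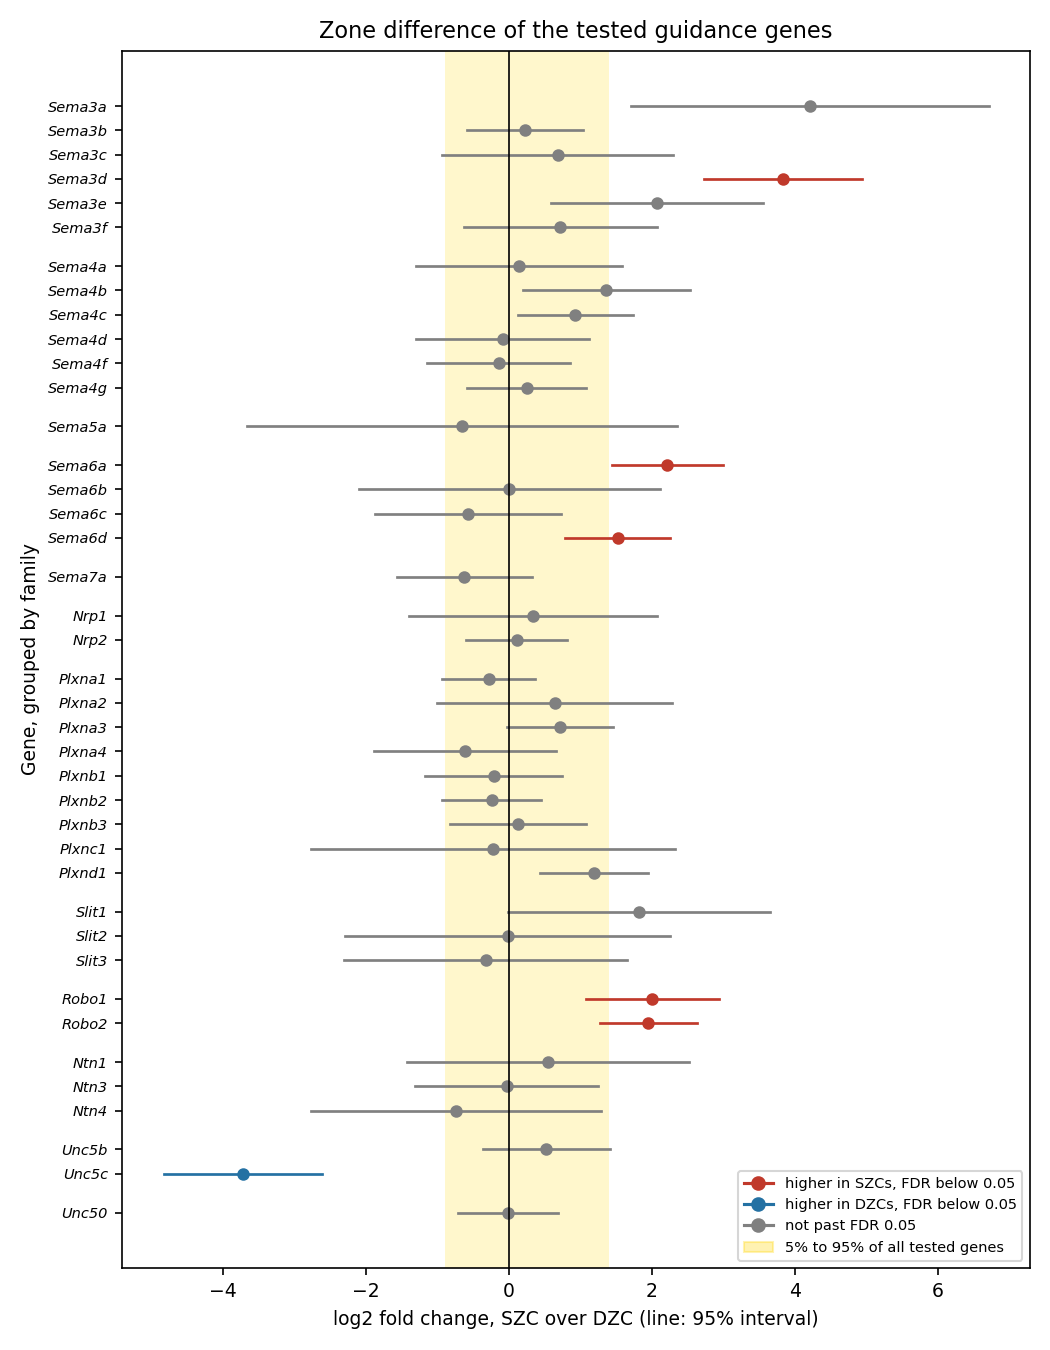
Log2 fold change (SZC over DZC) of the 40 tested guidance genes, grouped by family, with its 95% interval as a line; the shaded band runs from -0.89 to 1.41, which holds 5% to 95% of all tested genes. The intervals of the 5 genes higher in SZCs, of *Unc5c* and of 5 genes that did not pass after adjustment (*Sema3a*, *Sema3e*, *Sema4b*, *Sema4c* and *Plxnd1*) are clear of 0, the plexins lie mostly inside the band, and *Sema3a*, *Sema5a* and *Plxnc1* have the widest intervals.

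Class 6 semaphorins are transmembrane proteins that bind class A plexins on neighbouring cells, and 2 of the 4 were higher in SZCs. *Sema6a*, a ligand of plexins A2 and A4, had 711 and 705 counts in SZCs and 127 and 125 in DZCs, or 32.3 and 30.4 against 7.90 and 5.60 CPM. Replicates differed little within either zone. The means of 31.3 ± 1.36 and 6.75 ± 1.62 CPM gave a log2 fold change of 2.22 (SE 0.395, FDR 1.50e-05), which is 4.65-fold. *Sema6d*, a ligand of plexin A1, was at 35.2 and 27.9 CPM in SZCs and at 10.4 and 11.5 CPM in DZCs. This is a log2 fold change of 1.52 (SE 0.373, FDR 0.00437), or 2.88-fold. With an SZC library left out the fold of each stayed close while the call was lost: *Sema6a* had an FDR of 0.221 without SZC replicate 1 and 0.0824 without SZC replicate 2, and *Sema6d* had 1 and 0.357. In those fits the spread came from the DZC libraries alone, since the lone SZC library was assumed to vary as they did. *Sema6b* had 19 and 31 counts in SZCs and 3 and 44 in DZCs, with the DZC libraries on either side of the SZCs (log2 fold change 0.01, FDR 1). *Sema6c* was at 1.82 and 4.14 CPM in SZCs and 5.10 and 3.72 CPM in DZCs (-0.56, FDR 0.990). The summed level of the class was 70.1 and 63.8 CPM in SZCs and 23.6 and 22.8 CPM in DZCs.

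The transmembrane class 4 semaphorins signal mostly through class B plexins, and none of the 6 passed the test. In 3 of them both SZC libraries were above both DZC libraries. *Sema4c*, a ligand of plexin B2, was at 35.7 and 23.1 CPM in SZCs and 17.3 and 13.4 CPM in DZCs, a log2 fold change of 0.94 (95% interval 0.13 to 1.75, FDR 0.370). *Sema4b* was at 9.86 and 5.64 CPM in SZCs and 2.30 and 3.68 CPM in DZCs (1.37, SE 0.596, FDR 0.368). Each call turned on a DZC library: *Sema4c* gave 1.13 (FDR 0.0436) without DZC replicate 1 and *Sema4b* gave 1.77 (FDR 0.0189) without DZC replicate 2, while neither passed with any other library left out. *Sema4g* gave 0.25 (FDR 1). *Sema4d*, the ligand of plexin B1 that osteoclasts use to restrain osteoblasts, was at 3.68 and 2.97 CPM in SZCs and 2.49 and 4.53 CPM in DZCs, with overlapping zones. *Sema4a* and *Sema4f* overlapped too, with log2 fold changes of 0.14 and -0.14.

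Class 5 semaphorins carry thrombospondin repeats outside the cell. *Sema5a* had 4 and 17 counts in SZCs and 0 and 32 in DZCs, a log2 fold change of -0.66 with a 95% interval of -3.66 to 2.35, so no difference was detectable with these replicates, which disagreed within both zones. *Sema5b* had 1 to 35 counts and was not tested. *Sema7a*, the only class 7 semaphorin, is held at the membrane by a lipid anchor and binds plexin C1 and integrins. It was at 10.6 and 20.9 CPM in SZCs and at 28.4 and 20.1 CPM in DZCs (log2 fold change -0.62, SE 0.481, FDR 0.873). SZC replicate 1 was the low library, and the other three were close to each other.

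None of the 11 neuropilins and plexins, the receptors of the semaphorins, passed the test. *Nrp2*, the co-receptor of several class 3 semaphorins and of VEGF-C, was at 482 and 434 CPM in SZCs and 398 and 447 CPM in DZCs. The zones overlapped, and the log2 fold change of 0.12 had a 95% interval of -0.59 to 0.82, which is a fold of 0.663 to 1.77. *Nrp1*, the co-receptor of *Sema3a* and of VEGF-A, was at 12.3 and 16.3 CPM in SZCs and at 2.55 and 19.9 CPM in DZCs. DZC replicate 1 was low and DZC replicate 2 was the highest library. The log2 fold change of 0.34 (FDR 1) became -0.48 without DZC replicate 1 and 2.51 (FDR 2.41e-06) without DZC replicate 2.

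The summed level of the 9 plexins was 534 and 535 CPM in SZCs and 543 and 516 CPM in DZCs. *Plxnd1*, a receptor of *Sema3e* in blood vessels, came closest to the threshold. It had 2621 and 1885 counts in SZCs and 809 and 833 in DZCs, or 119 and 81.2 against 50.3 and 37.3 CPM, so the zones did not overlap. The log2 fold change was 1.19 (SE 0.388, 95% interval 0.43 to 1.95), which is 2.29-fold, with an FDR of 0.0753. The FDR was 0.00357 without DZC replicate 1 and 0.0206 without DZC replicate 2, but 1 without SZC replicate 1 and 0.466 without SZC replicate 2. With all 4 libraries it passed in 1 of 7 alternative settings, scaling by library totals only (0.00893), and reached 0.342 in the quasi-likelihood test. *Plxna3* was at 23.9 and 19.9 CPM in SZCs and at 13.1 and 13.5 CPM in DZCs (0.71, FDR 0.612).

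In 3 plexins both DZC libraries were above both SZC libraries, and none was distinguishable from the spread between libraries; the log2 fold changes of *Plxna1* and *Plxnb2* changed sign, to 0.0076 and 0.074, with scaling by library totals only. *Plxnb2*, a receptor of class 4 semaphorins, was at 246 and 284 CPM in SZCs and at 318 and 306 CPM in DZCs, a log2 fold change of -0.24 (95% interval -0.93 to 0.46, FDR 0.999). *Plxna1* was at 59.3 and 65.7 CPM in SZCs and at 71.4 and 80.4 CPM in DZCs (-0.28, FDR 0.987). *Plxna4* was near 1 to 2 CPM in all libraries (-0.61, FDR 0.977). The zones overlapped for *Plxna2*, *Plxnb1*, *Plxnb3* and *Plxnc1*. *Plxna2* was at 22.3 and 22.2 CPM in SZCs and at 3.48 and 25.0 CPM in DZCs, so the zone difference of 0.64 (FDR 0.995) again rested on DZC replicate 1, being -0.16 without it and 2.70 (FDR 4.02e-10) without DZC replicate 2. *Plxnb1*, the receptor of *Sema4d*, was at 52.6 and 43.1 CPM in SZCs and at 77.3 and 33.3 CPM in DZCs, with the SZC libraries between the DZC libraries. *Plxnc1* had 26 and 146 counts in SZCs and 7 and 184 in DZCs, higher in replicate 2 of both zones; its log2 fold change was -0.22 (FDR 1) and became 3.11 (FDR 0.0376) without DZC replicate 2. Its span in the annotation overlaps that of *Cep83*, and how reads in the overlap were counted is not known.

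**Figure D3:**
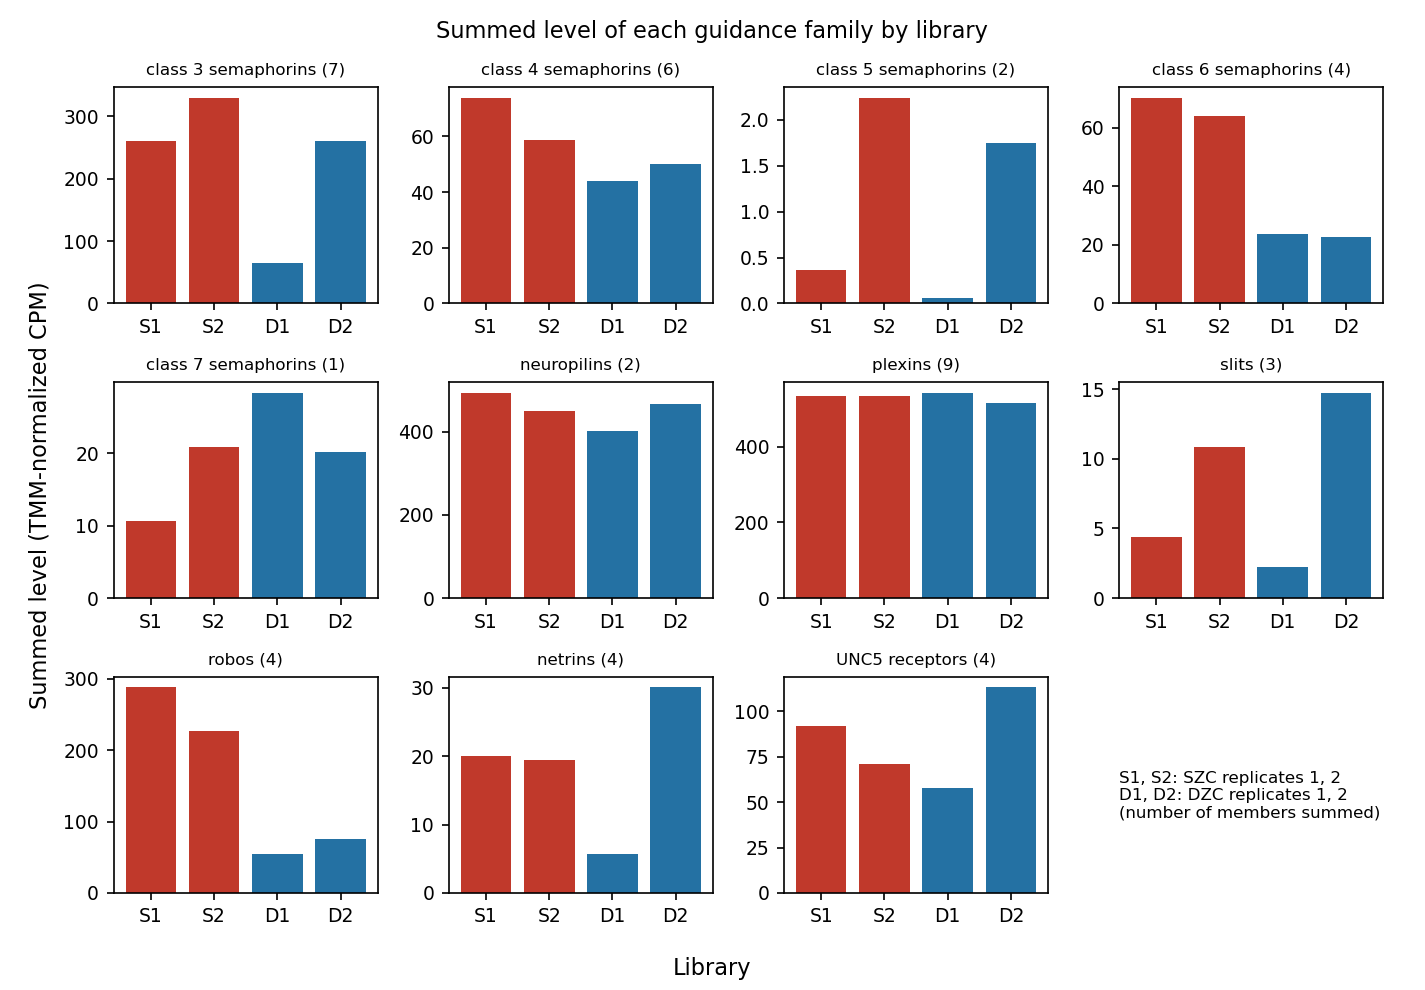
Summed level of each family (TMM-normalized CPM, linear axes from 0, a separate scale for each family) in SZC replicates 1 and 2 and DZC replicates 1 and 2; members with longer transcripts weigh more in a sum. The robos and the class 4 and class 6 semaphorins are higher in both SZC libraries, and the plexins are level. Of the other families, the class 3 and class 5 semaphorins, netrins, slits, UNC5 receptors and, by a small margin, neuropilins are lowest in DZC replicate 1.

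Both tested robos were higher in SZCs. Robos are the transmembrane receptors of the slits. *Robo1* had 4354 and 3074 counts in SZCs and 439 and 1216 in DZCs, or 198 and 132 against 27.3 and 54.5 CPM. The zones did not overlap, although the replicates of each zone spread widely. The means of 165 ± 46.2 and 40.9 ± 19.2 CPM gave a log2 fold change of 2.01 (SE 0.475, FDR 0.00354), which is 4.03-fold. *Robo2* was at 90.3 and 93.0 CPM in SZCs and at 26.6 and 20.7 CPM in DZCs. Its replicates were closer, and the means of 91.6 ± 1.94 and 23.6 ± 4.14 CPM gave a log2 fold change of 1.96 (SE 0.345, FDR 1.00e-05), which is 3.88-fold. *Robo1* and *Robo2* are consecutive protein-coding genes in the annotation. Without SZC replicate 1 the FDR was 0.410 for *Robo1* and 0.130 for *Robo2*, and without SZC replicate 2 it was 0.0821 for *Robo2*. The log2 fold changes stayed between 1.60 and 2.62 for *Robo1* and between 1.81 and 2.15 for *Robo2* with any library left out. The summed level of the robos was 288 and 227 CPM in SZCs and 53.9 and 75.6 CPM in DZCs.

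The other two robos were not tested. *Robo3* had 0 to 2 counts. *Robo4*, the robo of endothelial cells, had 1 and 29 counts in SZCs and 0 and 8 in DZCs. The endothelial markers *Cdh5*, *Emcn* and *Esam* were low in the same libraries, with *Emcn* at 2, 25, 0 and 4 counts in SZC replicates 1 and 2 and DZC replicates 1 and 2. In the same order *Vwf* had 49, 75, 54 and 100 counts and *Tek* had 24, 33, 6 and 34, so both were highest in DZC replicate 2. The part of endothelial cells in the *Robo4* counts was not tested. The endothelial list summed to 95.4 and 78.1 CPM in SZCs and 31.7 and 28.2 CPM in DZCs. Most of this was *Erg*, a transcription factor that chondrocytes also make. Of the 10 listed, 4 were tested, and *Erg* alone passed. Without *Erg* the list summed to 4.50 and 10.4 CPM in SZCs and 4.17 and 7.75 CPM in DZCs, with the zones overlapping, and *Cldn5* had 0 counts in 3 libraries and 1 in SZC replicate 2.

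The slits, the ligands of these receptors, had 3 to 249 counts and none passed the test. *Slit1* had 10 and 16 counts in SZCs and 3 in each DZC library, without overlap (log2 fold change 1.82, 95% interval -0.01 to 3.65, FDR 0.637). *Slit2* had 41 counts in each SZC library and 3 and 77 in DZCs, so the DZC libraries lay on either side of the SZCs. Its log2 fold change was -0.01 (FDR 1), and 3.26 (FDR 0.00971) without DZC replicate 2. *Slit3* was at 2.04 and 8.40 CPM in SZCs and at 1.87 and 11.2 CPM in DZCs, high in replicate 2 of both zones (-0.32, FDR 1). The summed slit level was 4.36 and 10.9 CPM in SZCs and 2.24 and 14.7 CPM in DZCs.

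*Unc5c* was the single guidance gene higher in DZCs. It encodes a netrin receptor of the repulsive kind. It had 32 and 75 counts in SZCs and 349 and 892 in DZCs, or 1.45 and 3.23 against 21.7 and 40.0 CPM. The lower DZC library lay far above the higher SZC library. The means of 2.34 ± 1.26 and 30.8 ± 12.9 CPM gave a log2 fold change of -3.71 (SE 0.566, 95% interval -4.82 to -2.61, FDR 1.03e-06), which is 13.1-fold higher in DZCs. Leaving out any single library kept the call, with log2 fold changes of -4.40 to -3.18. Of 9 markers of hypertrophic chondrocytes and bone, 4 were tested and 1 was higher in DZCs. The 9 summed to 4.91 and 7.45 CPM in SZCs and to 16.3 and 73.6 CPM in DZCs. *Ihh*, made by prehypertrophic chondrocytes, was the one that passed (13 and 5 against 194 and 48 counts, FDR 0.0160), while the osteoblast and late hypertrophic genes *Ibsp* and *Mmp13* had 0 counts in DZC replicate 1 and 268 and 468 in DZC replicate 2. *Phospho1*, of mineralizing cells, had 51 and 134 counts in SZCs and 65 and 49 in DZCs. *Unc5c* itself was high in both DZC libraries, and the part of these cells in its difference was not tested.

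The other tested UNC5 receptor overlapped between zones. *Unc5b*, a receptor of netrin 1 in blood vessels, was at 90.0 and 67.8 CPM in SZCs and at 36.3 and 73.0 CPM in DZCs. The log2 fold change was 0.53 (FDR 0.922), which became 0.11 without DZC replicate 1 and 1.14 (FDR 0.00466) without DZC replicate 2. *Unc5a* had 0 to 5 counts, and *Unc5d* had 0 counts in every library, which allows up to 0.187 CPM. Both *Unc50* and *Unc5cl* bear the prefix without being netrin receptors. *Unc50* was level (-0.0083, 95% interval -0.70 to 0.69), and *Unc5cl* had 0 counts in every library.

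The netrins did not pass the test either. *Ntn1*, the founding member of the family, had 329 and 287 counts in SZCs and 22 and 384 in DZCs, or 14.9 and 12.4 against 1.37 and 17.2 CPM. DZC replicate 1 was 12.6-fold below DZC replicate 2, and the log2 fold change of 0.55 (FDR 1) became -0.33 without DZC replicate 1 and 3.33 (FDR 3.18e-09) without DZC replicate 2. *Ntn4*, a basement membrane netrin related to laminins, was at 2.68 and 4.70 CPM in SZCs and at 1.06 and 11.2 CPM in DZCs. Its log2 fold change was -0.73 (FDR 0.998), and -1.59 (FDR 0.0227) without DZC replicate 1, so it passed as higher in DZCs only with that library left out. *Ntn3* was at 2.45 and 2.33 CPM in SZCs and at 3.23 and 1.66 CPM in DZCs (-0.03, FDR 1). *Ntn5* had 0 to 1 counts.

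A split between the DZC libraries recurred in 7 of the 11 families, leaving aside the pair of genes that share only the UNC5 prefix. In 11 of the 40 tested guidance genes DZC replicate 2 was at least 4-fold above DZC replicate 1, as were 7.08% of all tested genes. The reverse was seen in 0 of the 40 and in 1.19% of all tested genes. The 11 were *Sema3a*, *Sema3c*, *Sema5a*, *Sema6b*, *Ntn1*, *Ntn4*, *Nrp1*, *Plxna2*, *Plxnc1*, *Slit2* and *Slit3*. They include ligands and receptors, and 0 of the 6 genes that passed the zone test. A wide split within a zone raises the spread that the zone test uses, so this absence is partly built in. In 23 of the 40 DZC replicate 1 was the lowest library, as in 36.5% of all tested genes. The median log2 ratio of DZC replicate 2 over DZC replicate 1 was 0.56 in the guidance genes and 0.02 over all tested genes. Between the SZC libraries, among the 40 tested genes, only *Sema5a*, *Plxnc1* and *Slit3* differed 4-fold or more, each higher in replicate 2, as were 1.45% of all tested genes; 0.311% had the reverse. All guidance genes together took 0.207% of the counts of either SZC library, 0.0924% in DZC replicate 1 and 0.173% in DZC replicate 2. After TMM, which allows for the larger share of *Col2a1* in DZC replicate 1, they summed to 1877 and 1819 CPM in SZCs and to 1259 and 1597 CPM in DZCs.

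The same DZC libraries differed in other markers. Smooth muscle actin, *Acta2*, had 254 and 2164 counts in SZCs and 855 and 6938 in DZCs, and *Cnn1* had 15 and 97 against 7 and 348, so both were higher in replicate 2 of each zone. None of the 7 pericyte and smooth muscle markers passed the zone test. Their sum was mostly *Cspg4*, which went the other way and was lower in replicate 2 of each zone. The sum was likewise lower in replicate 2, at 2557 and 2127 CPM in SZCs and 2421 and 2027 CPM in DZCs. The macrophage and blood list was lowest in DZC replicate 1, and the hypertrophic and bone list was highest in DZC replicate 2. The chondrocyte list went the other way, at 485946 CPM in DZC replicate 1 and 188467 CPM in DZC replicate 2. It was mostly *Col2a1*, and of its genes only *Matn3* was higher in DZC replicate 2. The Schwann and neural list ranged from 11.1 to 18.0 CPM, highest in DZC replicate 1 and mostly *Sox10* (181 and 187 counts in SZCs, 234 and 146 in DZCs), with the neurofilament gene *Nefm* at 0 in 3 libraries and at 1 count in DZC replicate 2. The part of these cell types in the split was not tested. Without DZC replicate 1, 10 guidance genes and 6.68% of all genes passed the zone test. Without DZC replicate 2, 17 guidance genes and 21.5% of all genes passed. *Sema3d*, *Sema6a*, *Sema6d*, *Robo1*, *Robo2* and *Unc5c* passed in both.

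**Figure D4:**
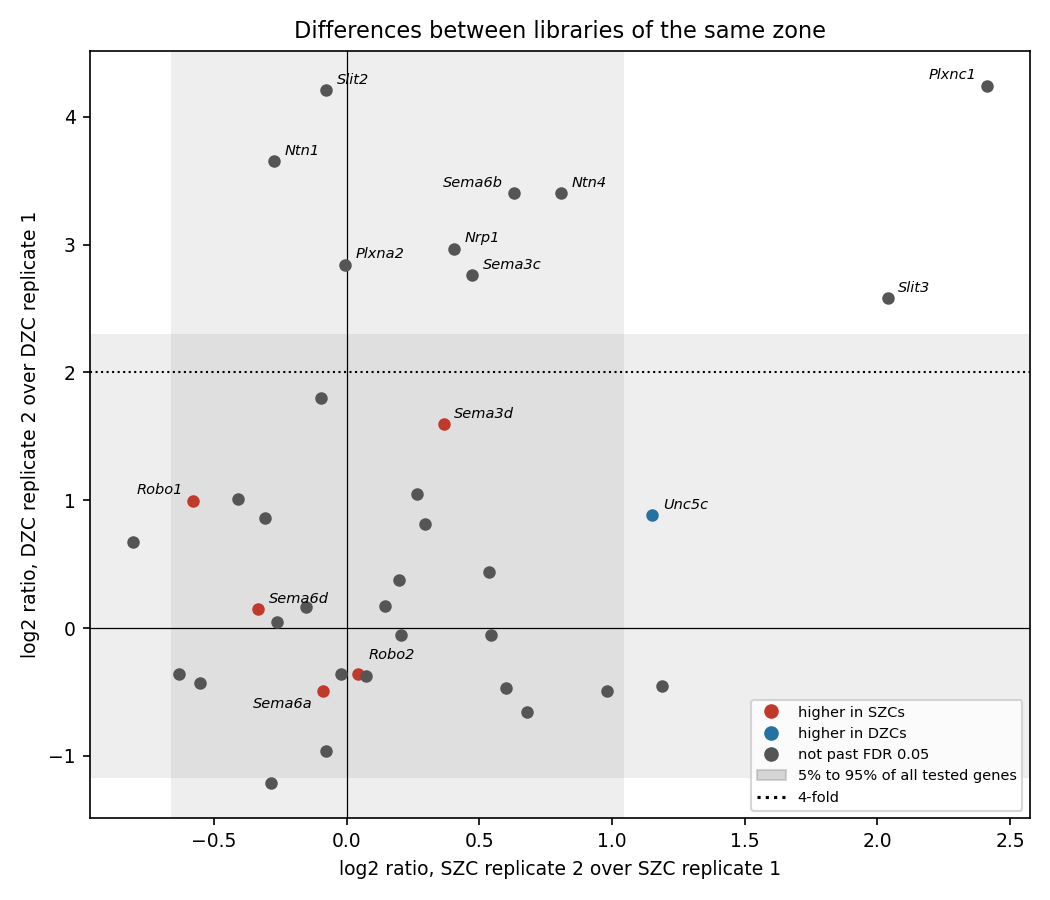
Log2 ratio of replicate 2 over replicate 1 in DZCs (vertical axis) against that in SZCs (horizontal axis) for the tested guidance genes other than *Sema3a* and *Sema5a*, which had 0 counts in DZC replicate 1. Shaded bands hold 5% to 95% of all tested genes (-0.66 to 1.04 in SZCs, -1.17 to 2.30 in DZCs) and the dotted line marks 4-fold; 9 genes lie above it, and the 6 genes that passed the zone test lie below.

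Other genes of these pathways were taken from a list of 61 co-receptors, further ligands and intracellular effectors. Of these, 59 were found by name and 50 were tested, while *Dcc* and *Rac1* are not analysed here. Of the 50, 1 was higher in SZCs and 1 in DZCs at an FDR below 0.05, beside 2.23% and 0.7% of all tested genes. The median log2 fold change of the 50 was -0.01. *Pgf*, a ligand of the VEGF family that binds FLT1 and neuropilins, had 480 and 223 counts in SZCs and 7 and 5 in DZCs. The log2 fold change of 5.58 (SE 0.738, FDR 3.23e-09) is 48.0-fold. *Gpc1*, a heparan sulphate proteoglycan of the cell surface that binds slits, had 2181 and 3254 counts in SZCs and 7765 and 7637 in DZCs. It was 3.45-fold higher in DZCs (log2 fold change -1.79, SE 0.404, FDR 0.00176). The call for *Gpc1* was lost without SZC replicate 1 (FDR 1) and without SZC replicate 2 (FDR 0.266), with log2 fold changes of -2.06 to -1.51 over the 4 fits, while that for *Pgf* was kept with any single library left out, at 4.86 to 6.10.

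The remaining partners did not pass. *Srgap1*, a GTPase-activating protein that acts below robos, was at 18.0 and 14.6 CPM in SZCs and at 4.73 and 7.53 CPM in DZCs (log2 fold change 1.41, SE 0.472, FDR 0.0939). *Neo1*, which encodes the netrin and RGM receptor neogenin, was at 171 and 236 CPM in SZCs and at 168 and 130 CPM in DZCs (0.45, FDR 0.922). *Vegfa* was at 224 and 142 CPM in SZCs and at 116 and 134 CPM in DZCs (0.56, FDR 0.839). *Kdr*, its main endothelial receptor, had 35 and 83 counts in SZCs and 0 and 15 in DZCs (2.88, FDR 0.435). Other partners leaned the opposite way, with both DZC libraries above both SZC libraries. Among them were the plexin effectors *Rhod* (log2 fold change -0.81, FDR 0.708) and *Limk2* (-0.55, FDR 0.825). The robo and netrin effectors *Nck1* (-0.69, FDR 0.663) and *Vasp* (-0.51) were also among them. None of the 18 tested plexin effectors and none of the 17 tested robo and netrin effectors passed.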

How the data were processed

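SZCs and DZCs were profiled by RNA-Seq (2 libraries each; SMART-Seq v4 amplification, 75 bp single-end reads, no molecular identifiers, so the floors of 3 counts cover counting error of amplified reads only). Per the submitters' processing notes and the study's methods, the authors aligned reads with STAR 2.5.2b to the bovine genome (UMD 3.1, Ensembl 88). They deposited raw read counts per gene. The kit marks no strand, so strand cannot assign reads where genes overlap, and how such reads were counted is not stated. In RefSeq, 23 of the 48 spans overlap another gene. Among them are *Sema3d*, *Sema6d*, *Robo1*, *Robo2* and *Unc5c*, which overlap noncoding genes or pseudogenes only. The deposited table of the authors' own fold changes was used only to fill 8 blank gene names.

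In R 4.3.3, genes were kept by the default expression filter of edgeR 4.0.16, normalized by TMM and compared by edgeR's exact test, as in the study, with Benjamini-Hochberg adjustment over the 12857 tested genes and FDR 0.05 as threshold. SE came from the negative binomial model with the same dispersions, and 95% intervals, which are normal, cover the spread between libraries. The procedure was tested on simulated data. Members and gene lists were chosen with earlier results of these data known. The genes named were each member past the threshold, the most abundant and the most different tested member of each family, each untested member, each partner past the threshold and *Prg4*, *Creb5* and *Col2a1*; other members are named to account for all 48, and further partners and markers were chosen after their values were seen. The alternatives were edgeR's quasi-likelihood test with and without a replicate block, DESeq2 1.42.0, DESeq2's size factors in edgeR, scaling by library totals, testing without a filter, keeping genes above 1 CPM in 2 or more libraries, and leaving out each library. Replicates of a zone were not copies (chi-square per degree of freedom 61.9 in SZCs and 303 in DZCs). All 48 symbols matched RefSeq (ARS-UCD2.0). Accessibility libraries are not analysed here.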

Additional observations from a re-analysis of the deposited data

How the results depend on the processing

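The 6 guidance genes past the threshold were the same 6 with DESeq2, with DESeq2's size factors, without a filter and with the CPM filter, and *Plxnd1* joined them with scaling by library totals only (7 called). That scaling moved the median log2 fold change of all genes from -0.04 to 0.26 and the share of calls higher in SZCs from 76.1% to 86.7%, as calls higher in DZCs went from 90 to 44 and those higher in SZCs from 287 to 288. The quasi-likelihood test called 0 guidance genes (0 in either direction), 0 partner genes and 0 genes in all, with 12, 5 and 1126 at an unadjusted p below 0.05; the cause was not tested. The same test with a replicate block called the same 6 guidance genes, 2 partners and 347 genes, beside 377 by the exact test. Same-numbered libraries deviated together (correlation 0.42 across genes), and superficial and deep slices were cut from the same cores, but no source says that a number marks a shared joint, so whether the numbers pair the libraries is not known. With a library left out, called guidance genes numbered 2 to 17 (1 to 16 higher in SZCs, 1 to 2 higher in DZCs), partners 1 to 19 and all genes 68 to 2768. The spread then came from the zone that still held 2 libraries, which makes fewer calls where that zone is the DZCs. Without SZC replicate 1 the called guidance genes were *Sema3d* and *Unc5c*, and without SZC replicate 2 they were *Robo1*, *Sema3a*, *Sema3d* and *Unc5c*. None of the 6 genes changed direction in any setting, and their FDRs over the 7 alternatives reached 0.125 to 0.257, the highest each time with the quasi-likelihood test without a block. With library totals the log2 fold change was 0.33 for *Unc50*, 0.074 for *Plxnb2*, 0.075 for *Sema4f*, 0.071 for *Slit2*, 0.15 for *Sema4d*, 0.36 for *Ntn3*, 0.0076 for *Plxna1* and 0.21 for *Plxnb1*. With the replicate block it was 0.0026 for *Unc50*, 0.039 for *Ntn3*, 0.32 for *Plxnc1* and 0.68 for *Slit2*, and with the quasi-likelihood test it was -0.00087 for *Sema6b*. With a library left out the log2 fold change ran from -0.11 to 2.67 for *Sema3c*, -1.97 to 6.26 for *Sema5a* (fitted against 0 counts, so no bound), -0.33 to 3.33 for *Ntn1*, -1.59 to 1.82 for *Ntn4*, -0.48 to 2.51 for *Nrp1*, -0.16 to 0.19 for *Unc50*, -1.67 to 1.51 for *Slit3*, -0.11 to 0.72 for *Sema3b*, -0.24 to 0.49 for *Sema4a*, -0.44 to 0.44 for *Sema4d*, -0.56 to 0.50 for *Sema4f*, -0.83 to 2.54 for *Sema6b*, -0.41 to 0.53 for *Ntn3*, -0.16 to 2.70 for *Plxna2*, -0.67 to 0.52 for *Plxnb1*, -0.16 to 0.40 for *Plxnb3*, -1.88 to 3.11 for *Plxnc1* and -0.92 to 3.26 for *Slit2*. At 2 libraries per zone, genes such as *Sema5a* and *Slit1* have intervals too wide to show either a difference or its absence.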
